A study of Sus scrofa with 15 samples.

Results

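Angiotensin and endothelin are vasoactive peptides, and 7 genes that make or sense them were read in the subcutaneous backfat of Iberian pigs. The set holds the peptide precursors AGT and EDN1, the converting enzymes ACE and ECE1, and the receptors AGTR1, EDNRA and EDNRB. They are 7 of the 30477 genes in each count table, and all 7 were among the 14918 genes that passed the filter on low counts. The members were picked by symbol, and AGTR1 and EDNRB were picked because they were higher in pigs fed dry olive pulp. Their differences between diets are therefore given as a description without a test, while the other 5 genes were tested in every comparison.

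The 15 animals were Iberian pigs of about a year of age, with 5 pigs per diet and 1 RNA-seq library per pig. The control group (C) ate a compound feed. The DOP group ate a pelleted feed made with dry olive pulp, which is what remains after the stone and a further part of the oil are taken out. The WCOC group ate a compound feed without by-product and, freely, a silage of wet crude olive cake with barley straw. All 3 feeds were rationed below free intake, each diet was given in 1 pen, and the pigs were chosen among larger groups by the quantity and quality of their RNA. The diet and its pen therefore cannot be told apart. Levels are given in CPM, the read pairs of a gene per 1000000 pairs on the genes tested, after scaling of the libraries by TMM, the trimmed mean of M-values. The libraries held 22373715 to 34745218 pairs on genes.

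Angiotensinogen, the product of AGT, is cut stepwise, last by angiotensin-converting enzyme (ACE), to angiotensin II, which narrows vessels and raises aldosterone through the type 1 receptor AGTR1. Fat cells make angiotensinogen, so adipose tissue holds a local form of the system beside the circulating one. Endothelial cells secrete endothelin as a long precursor encoded by EDN1, which the converting enzyme ECE1 trims to the active peptide. Its receptor EDNRA sits mainly on vascular smooth muscle and contracts it, whereas EDNRB on endothelium releases nitric oxide and clears the peptide from the blood.

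The backfat biopsies carried the markers of fat tissue. ADIPOQ, which encodes adiponectin and was the most abundant of 9 matched adipocyte markers, averaged 3691 CPM in C, 5493 CPM in DOP and 5849 CPM in WCOC. Libraries differed in what came along with the fat. The summed level of 7 skeletal muscle markers ran from 222 to 4064 CPM in C, from 203 to 50590 CPM in DOP and from 194 to 965 CPM in WCOC, with DOP 5, DOP 2 and DOP 4 the highest. All DOP libraries and C 5 were read on one flow cell (B in the run identifiers, as named here), and the other C libraries and all WCOC libraries on another (A). A difference between DOP and the rest therefore cannot be told apart from the flow cell except through C 5.

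On the Sscrofa11.1 assembly the members lie on 7 chromosomes. AGT (ENSSSCG00000010184) spans chromosome 14 from 59643030 to 59656835 on the plus strand, and EDN1 (ENSSSCG00000035598) chromosome 7 from 8752018 to 8758354 on the plus strand. ACE (ENSSSCG00000017296) lies on chromosome 12 from 15394487 to 15414609 on the minus strand, and ECE1 (ENSSSCG00000003513) on chromosome 6 from 79408322 to 79465827 on the minus strand. The receptor genes are AGTR1 (ENSSSCG00000011695) on chromosome 13 from 88934873 to 88980317, plus strand, EDNRA (ENSSSCG00000009031) on chromosome 8 from 81210750 to 81279053, minus strand, and EDNRB (ENSSSCG00000009477) on chromosome 11 from 50073300 to 50102879, minus strand. ACE apart, these gene models overlapped no other gene of the RefSeq annotation. ACE shared its first base with an exon of the long non-coding gene LOC110256165 on the other strand, and since the strand setting of the counting is not given in the sources used here, reads of that exon could not be assigned with certainty.

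The promoters of the genes whose levels differed most between diets are shown, to describe how unlike these genes are around the first base of their gene models. Whether transcription begins at that base was not tested. Each run covers 250 bases before and 50 bases from the first base of the gene model, read 5′ to 3′ along the gene from the RefSeq annotation of Sscrofa11.1, at chr13:88934623-88934922 (plus strand) for AGTR1, chr11:50102830-50103129 (minus strand) for EDNRB and chr12:15414560-15414859 (minus strand) for ACE. Capitals mark matches, on either strand, to the motifs searched: AP-1 with the letters TGANTCA, the E-box with CANNTG, the GC box with GGGCGG, the box named for its letters CCAAT, the hypoxia core with ACGTG, the binding motif of GATA factors with AGATAA, the promoter box with the letters TATAAA and the cAMP response core with TGACG. Overlapping matches were each counted.
AGTR1: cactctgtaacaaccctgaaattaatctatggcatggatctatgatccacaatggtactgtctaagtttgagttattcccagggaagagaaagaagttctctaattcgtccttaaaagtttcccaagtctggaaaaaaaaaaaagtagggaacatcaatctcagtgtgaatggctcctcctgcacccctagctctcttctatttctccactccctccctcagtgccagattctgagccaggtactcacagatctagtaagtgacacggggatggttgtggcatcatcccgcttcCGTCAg
EDNRB: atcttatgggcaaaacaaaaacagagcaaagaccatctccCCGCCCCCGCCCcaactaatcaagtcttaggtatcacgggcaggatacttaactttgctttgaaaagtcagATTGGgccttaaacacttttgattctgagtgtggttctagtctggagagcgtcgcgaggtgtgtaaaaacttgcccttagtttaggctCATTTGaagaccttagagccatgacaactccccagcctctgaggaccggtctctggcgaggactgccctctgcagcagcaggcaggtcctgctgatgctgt
ACE: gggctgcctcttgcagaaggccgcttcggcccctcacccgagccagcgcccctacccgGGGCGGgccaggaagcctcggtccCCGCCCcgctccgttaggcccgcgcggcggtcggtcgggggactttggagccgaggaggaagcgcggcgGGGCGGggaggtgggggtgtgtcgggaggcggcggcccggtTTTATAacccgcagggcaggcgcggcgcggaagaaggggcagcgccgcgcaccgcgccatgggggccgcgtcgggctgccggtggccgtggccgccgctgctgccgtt

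The ACE promoter was rich in C and G (77.7% of bases, 43 CpG), the AGTR1 promoter was poor in them (45.0%, 4 CpG), and EDNRB lay between (50.3%, 8 CpG), beside a median of 58.7% and 16 CpG over 19556 promoters of the same length. Counting the first base of the gene as 1, the ACE window held 3 GC boxes, starting at -192, -168 and -99, and the TATAAA box at -58. EDNRB had a pair of adjoining GC boxes at -210 and -204, a CCAAT box at -139 and an E-box at -51. In AGTR1 the single match was a cAMP response core at 45. Of all promoters, 50.6% held a GC box, 35.4% a CCAAT box, 67.8% an E-box, 24.3% a cAMP response core and 10.9% the TATAAA box, while AP-1, the hypoxia core and GATA, found in 6.07%, 22.3% and 9.17%, had no match in the 3 windows. A match of letters is a description of the sequence and not a binding site.

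**Figure D1:**
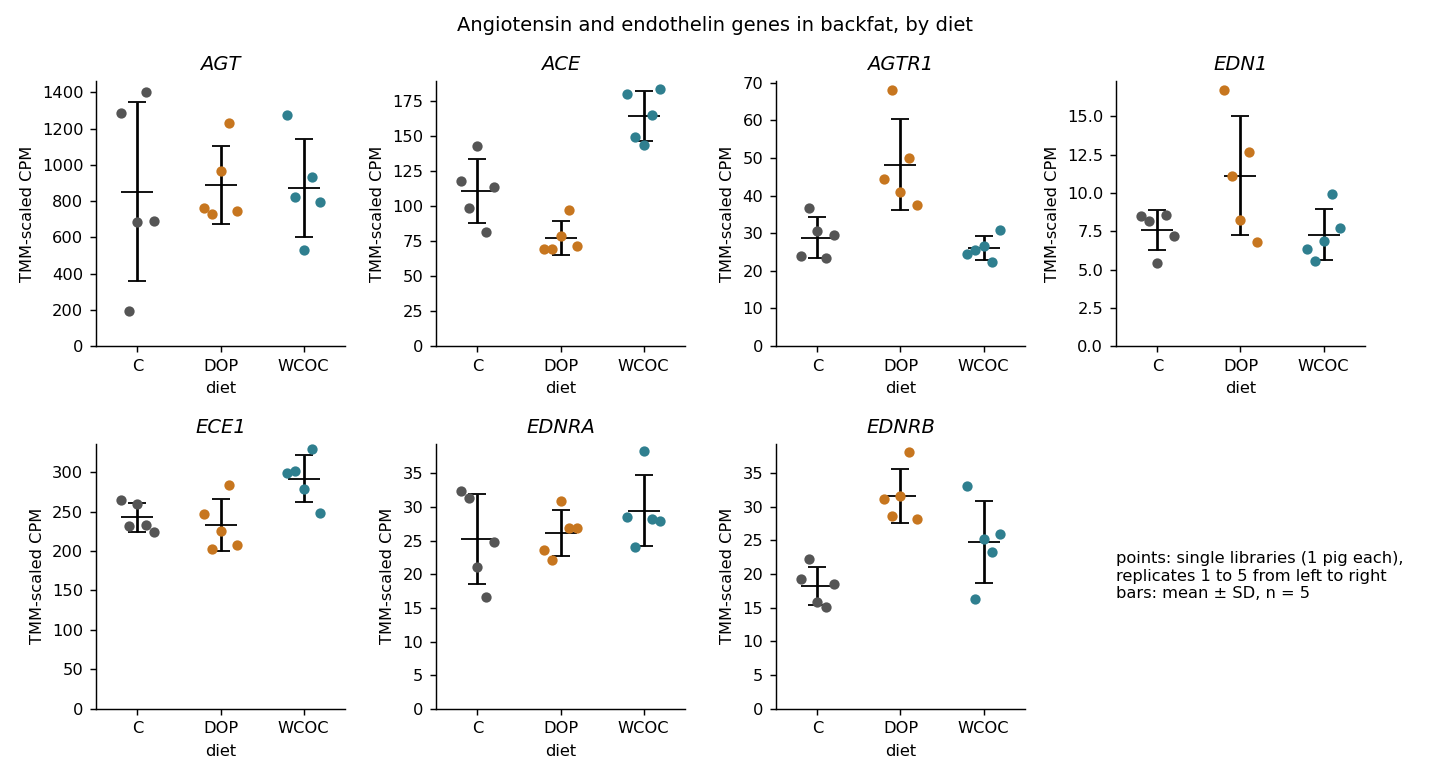
Level of the 7 genes in each library by diet, in TMM-scaled CPM on linear axes that start at 0. Points are single pigs (replicates 1 to 5 from left to right) and bars are mean ± SD (n = 5). ACE was lowest in DOP and highest in WCOC, AGTR1 and EDNRB were highest in DOP, and AGT overlapped between all diets.

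Read per length, AGT was by far the most abundant gene of the set. In C its level per kilobase of annotated exon averaged 375 CPM, against 52.0 for ECE1, 25.1 for ACE, 11.6 for AGTR1, 6.43 for EDNRA, 4.12 for EDN1 and 3.88 for EDNRB. The first 4 of these genes did not overlap with their neighbours in the order over the 5 C libraries, and the ranges of EDNRA (4.22 to 8.25), EDN1 (2.95 to 4.66) and EDNRB (3.23 to 4.74) did. In DOP the order changed at AGTR1 and ACE. AGTR1 averaged 19.4 and ACE 17.4 CPM per kilobase there, with ranges of 15.1 to 27.4 and 15.7 to 21.98 that overlapped, and the means of EDNRB, EDNRA and EDN1 lay close together at 6.74, 6.66 and 6.05. In WCOC the level of ACE was 37.1 and that of AGTR1 10.5 CPM per kilobase, with EDNRA at 7.502, EDNRB at 5.28 and EDN1 at 3.96.

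**Figure D2:**
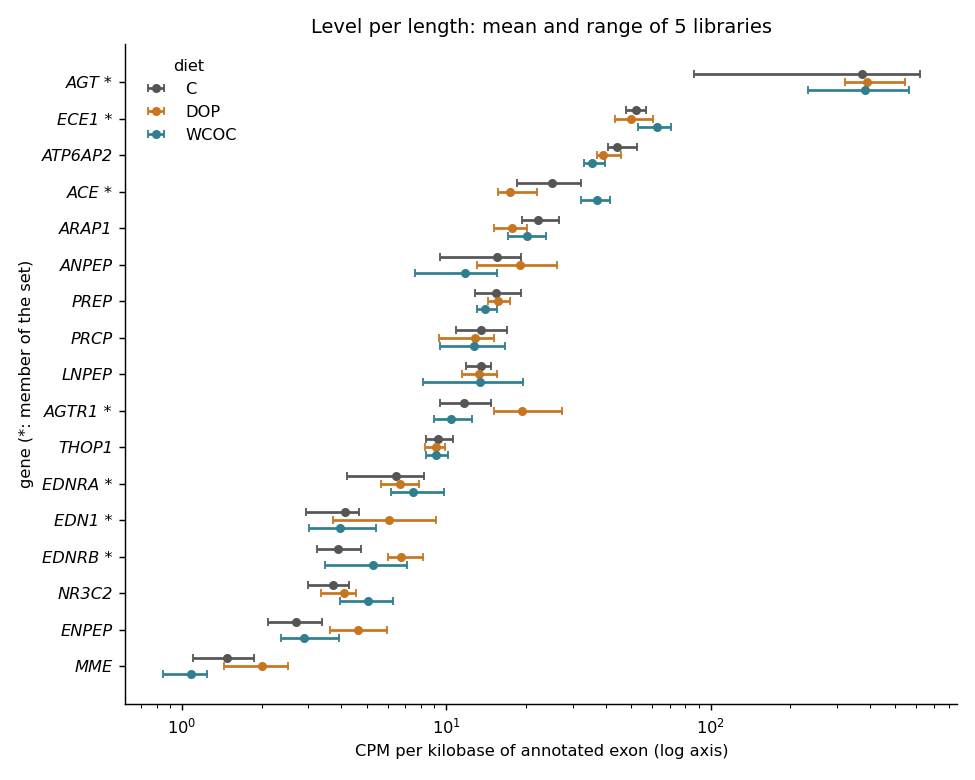
Level per length of the 7 members (marked with an asterisk) and of other tested genes of angiotensin metabolism, as CPM per kilobase of annotated exon on a log axis. Points are means and bars the lowest and highest of 5 libraries per diet. AGT leads, and ACE and AGTR1 change places between DOP and WCOC.

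The precursor of angiotensin showed no diet difference beyond the spread between pigs. In C 1 to C 5, AGT read 1286, 195.9, 685.4, 1402 and 690.4 CPM. The DOP pigs had 764, 730, 969, 1232 and 743 CPM. In WCOC 1 to WCOC 5 it was 1276, 825, 531, 934 and 795 CPM. The 3 groups overlapped almost completely and their means were 852 ± 494, 888 ± 215 and 872 ± 270 CPM (SD, n = 5). The log2 fold change (log2FC) was 0.06 ± 0.38 for DOP vs. C (SE, edgeR adjusted p = 0.959), 0.03 ± 0.38 for WCOC vs. C (edgeR adjusted p = 0.970) and -0.03 ± 0.38 for WCOC vs. DOP (edgeR adjusted p = 0.975). These values changed sign under several settings and rest on a wide spread.

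AGT varied most within C, where the highest library was 7.16 times the lowest. The coefficient of variation among C pigs was 57.96%, while counting error alone gave 0.677% at their mean count, so the number of reads did not limit this value. The lowest pig, C 2, also had the lowest summed level of the adipocyte markers, 12930 CPM in a range of 12930 to 22540 CPM over the 15 libraries. Over the 15 libraries after centring within diets, the log2 CPM of AGT and the mean log2 CPM of the adipocyte markers had a Pearson correlation of 0.63, a description of libraries that share their depth and tissue makeup. In bulk RNA, fewer cells of a type and less RNA per cell cannot be told apart.

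The precursor of endothelin was low in every group. EDN1 read 8.49, 8.20, 5.42, 8.57 and 7.19 CPM in C 1 to C 5. Levels in DOP were 16.8, 11.13, 8.24, 12.7 and 6.83 CPM. The WCOC pigs had 6.35, 5.54, 6.86, 9.94 and 7.70 CPM. DOP 1, DOP 4 and DOP 2 were above every C pig and DOP 5 was below 4 of 5, so the groups overlapped. The group means were 7.57 ± 1.33, 11.12 ± 3.90 and 7.28 ± 1.68 CPM (SD, n = 5). For DOP vs. C the log2FC was 0.55 ± 0.23 (SE, edgeR adjusted p = 0.227), and for WCOC vs. C it was -0.06 ± 0.23 (edgeR adjusted p = 0.906). Between the olive diets, WCOC vs. DOP, it was -0.61 ± 0.23 (edgeR adjusted p = 0.0935). Of 10 fits that each left out 1 library of these diets, 1 passed the threshold. That was the fit without DOP 5, the library richest in muscle RNA (log2FC -0.75, edgeR adjusted p = 0.0491). Over the 10 fits the log2FC ran from -0.75 to -0.42 and the edgeR adjusted p reached 0.219.

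Angiotensin-converting enzyme was higher in WCOC than in DOP. ACE, which makes angiotensin II and breaks down bradykinin, read 118, 98.7, 143.0, 81.7 and 113 CPM in C 1 to C 5. In DOP it was 69.4, 69.3, 78.5, 97.2 and 71.2 CPM. In WCOC it reached 179.8, 149.5, 143.3, 164.6 and 183.2 CPM. Every WCOC pig was above every DOP pig and, by a narrow margin between 143.3 and 143.0 CPM, above every C pig. Of the DOP pigs, 4 of 5 were below every C pig, and DOP 4 lay within the C range. Means were 111 ± 22.9 CPM in C, 77.1 ± 11.9 CPM in DOP and 164 ± 17.7 CPM in WCOC (SD, n = 5).

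A gene was called a differentially expressed gene (DEG) when its adjusted p was under 0.05 and its log2FC at least 0.58 in size. By this rule ACE was a DEG between the olive diets, with a level 2.13-fold higher in WCOC than in DOP (log2FC 1.09 ± 0.14, SE, edgeR adjusted p = 0.000956). Its p-value ranked 19 among the 14918 genes tested. Against C, ACE was 1.48-fold higher in WCOC (log2FC 0.56 ± 0.14, edgeR adjusted p = 0.0212), which passed the limit on p but not that on size. It was a DEG in that comparison without C 1 (log2FC 0.58, edgeR adjusted p = 0.0314), without C 3 (0.66, edgeR adjusted p = 0.0121), without WCOC 2 (0.59, edgeR adjusted p = 0.0199) or without WCOC 3 (0.61, edgeR adjusted p = 0.0266). In DOP the level was 0.695 times that in C (log2FC -0.52 ± 0.14, edgeR adjusted p = 0.0864), which did not pass the test.

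The difference in ACE between the olive diets was as large with other terms in the fit, although its error grew with the flow cell. With the flow cell as a covariate, which leaves C 5 alone to link DOP with the other groups, the log2FC was 1.12 with an edgeR adjusted p of 0.253. C 5, the control read beside the DOP libraries, had 113 CPM, and 5 of 5 DOP pigs were below it. Within flow cell A, where C and WCOC were both read, WCOC vs. C gave a log2FC of 0.56 (edgeR adjusted p = 0.0653). With the mean of the endothelial markers as a covariate, WCOC vs. DOP stood at 1.08 (edgeR adjusted p = 0.00124).

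The endothelin-converting enzyme ECE1, a membrane protease, had its highest mean in WCOC as well, but was no DEG in any comparison by edgeR, DESeq2 or limma-voom. Its levels were 265, 232, 260, 233 and 224 CPM in C 1 to C 5. The DOP pigs had 246, 203, 226, 283 and 208 CPM. In WCOC 1 to WCOC 5 the values were 299, 301, 279, 330 and 249 CPM. In WCOC 4 of 5 pigs lay above every C pig and 3 of 5 above every DOP pig, while WCOC 5 lay within both ranges. The means were 243 ± 18.4, 233 ± 32.9 and 292 ± 30.0 CPM (SD, n = 5). The log2FC was 0.26 ± 0.10 for WCOC vs. C (SE, edgeR adjusted p = 0.123) and 0.32 ± 0.10 for WCOC vs. DOP (edgeR adjusted p = 0.0552), and in DOP vs. C it was -0.06 ± 0.10 (edgeR adjusted p = 0.819). In WCOC vs. DOP the limit on p, but not that on size, was passed by DESeq2 (adjusted p = 0.0183) and by edgeR without DOP 4 (adjusted p = 0.031) or without WCOC 5 (adjusted p = 0.0461).

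**Figure D3:**
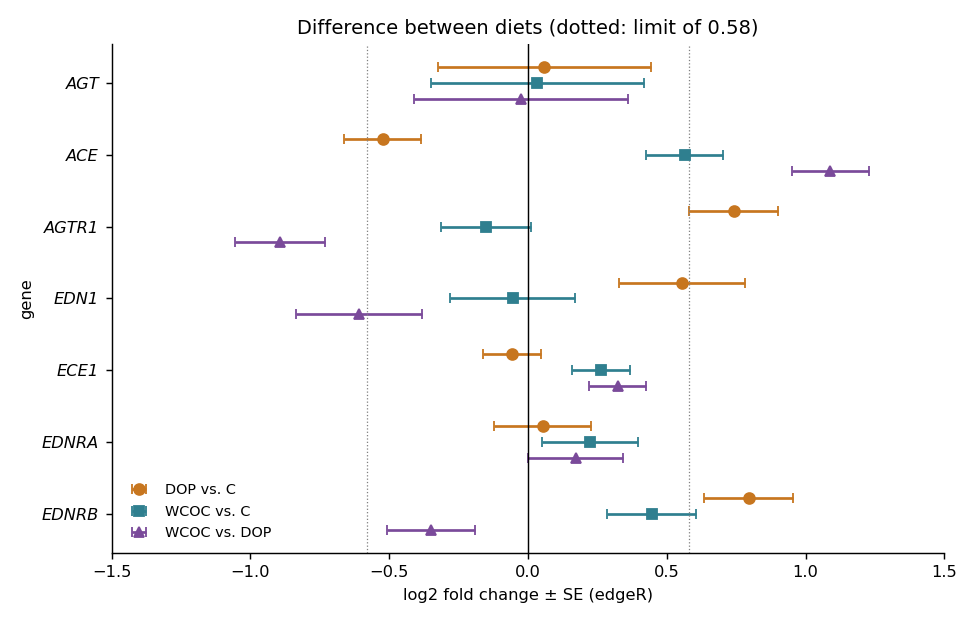
Fitted log2FC of the 7 genes with SE in the 3 comparisons (edgeR, all 15 libraries), with dotted lines at the limit of 0.58 in size. ACE lies at 1.09 in WCOC vs. DOP, and AGTR1 and EDNRB, chosen for their level in DOP, at 0.74 and 0.80 in DOP vs. C.

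The angiotensin receptor was higher in DOP than in either other diet. AGTR1, the receptor through which angiotensin II acts on vessels, read 24.0, 36.7, 30.6, 23.5 and 29.5 CPM in C 1 to C 5. In DOP it was 44.5, 68.1, 41.0, 49.99 and 37.6 CPM. The WCOC pigs had 24.5, 25.5, 26.6, 22.3 and 31.0 CPM. The DOP values lay above all C and all WCOC values, with DOP 5 nearest to the others and DOP 2 farthest. The means were 28.8 ± 5.42 CPM in C, 48.2 ± 12.03 CPM in DOP and 26.0 ± 3.22 CPM in WCOC (SD, n = 5), and DOP was 1.67 times C (log2FC 0.74 ± 0.16, SE). That is the difference by which the gene was chosen, and leaving out single libraries of these diets moved it between 0.58 and 0.84.

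In WCOC the level of AGTR1 lay within or just below the range of C. The log2FC of WCOC vs. C, which shares its C pigs with the comparison behind the choice, was -0.15 ± 0.16 (SE). C 5, the control on the flow cell of DOP, had 29.5 CPM, and 5 of 5 DOP pigs were above it. The log2FC of DOP vs. C was 0.71 with the flow cell, 0.76 with the muscle marker mean, 0.85 with the macrophage marker mean and 0.74 with the endothelial marker mean as a covariate.

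Of the endothelin receptors, EDNRA had no difference between diets that passed the test. This receptor, which contracts smooth muscle, read 32.4, 31.4, 21.1, 16.6 and 24.8 CPM in C 1 to C 5. In DOP the gene gave 23.7, 22.2, 31.0, 26.96 and 26.9 CPM. WCOC pigs had 28.6, 24.1, 38.3, 28.3 and 27.9 CPM. The groups overlapped, with WCOC 3 the highest and C 4 the lowest pig. Means were 25.2 ± 6.73, 26.1 ± 3.40 and 29.4 ± 5.29 CPM (SD, n = 5). The log2FC was 0.05 ± 0.17 for DOP vs. C (SE, edgeR adjusted p = 0.913), 0.22 ± 0.17 for WCOC vs. C (edgeR adjusted p = 0.432) and 0.17 ± 0.17 for WCOC vs. DOP (edgeR adjusted p = 0.561).

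EDNRB, which releases nitric oxide in endothelium, read 19.3, 22.2, 15.8, 15.1 and 18.5 CPM in C 1 to C 5. In DOP it was 31.2, 28.5, 31.6, 38.2 and 28.2 CPM. In WCOC it was 33.1, 16.3, 25.1, 23.2 and 26.0 CPM. All DOP pigs were above all C pigs, and the WCOC pigs lay between, 4 of 5 of them above every C pig. WCOC 2 was within the C range and WCOC 1 within the DOP range. The means were 18.2 ± 2.84 CPM in C, 31.5 ± 4.00 CPM in DOP and 24.7 ± 6.04 CPM in WCOC (SD, n = 5), and DOP, the diet for which the gene was chosen, was 1.74 times C (log2FC 0.80 ± 0.16, SE). The log2FC of WCOC vs. C was 0.45 ± 0.16 (SE) and 0.56 without WCOC 2, and rests on the same C pigs as the choice.

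The ratio of EDNRB to EDNRA in CPM, compared over libraries only, was 0.596 to 0.913 in C, 1.02 to 1.42 in DOP and 0.656 to 1.16 in WCOC. DOP pigs thus had the higher ratios, with the exception of WCOC 1, which lay within their range. This ratio contains the gene chosen for its level in DOP and was not tested.

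The endothelial markers were higher in DOP than in C in their summed level, as was EDNRB. Of 10 listed markers, 8 could be matched by symbol, led by PECAM1 with 513 CPM in C, 661 CPM in DOP and 637 CPM in WCOC. Their summed level was 1053 to 1337 CPM in C, 1354 to 1782 CPM in DOP and 1182 to 1847 CPM in WCOC. Every DOP library was thus above every C library, by a narrow margin between 1354 and 1337 CPM. In DOP vs. C, 7 of 8 markers had a log2FC above 0 (median 0.37) and TEK had -0.06. There 0 were DEGs by edgeR and limma-voom, beside 0.764% of all genes by edgeR, and DESeq2 called 1, CLDN5, higher. In WCOC vs. C, 8 of 8 markers had a log2FC above 0 (median 0.35), as had EDNRB, while that of EDN1 was -0.06. CLDN5 was the 1 DEG of the 8 there by edgeR (log2FC 0.75 ± 0.16, SE, edgeR adjusted p = 0.0123), beside 6.25% of all genes. DESeq2 and limma-voom called it too. After centring within diets, the correlation with the mean of these markers over 15 libraries was 0.71 for EDNRB, 0.66 for EDN1, 0.50 for EDNRA, 0.50 for ECE1, 0.38 for ACE and 0.02 for AGTR1.

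With the endothelial marker mean as a covariate, the log2FC of EDNRB fell to 0.44 in DOP vs. C and to 0.04 in WCOC vs. C, and that of EDN1 to 0.05 in DOP vs. C. In the same fit EDN1 gave -0.58 in WCOC vs. C (edgeR adjusted p = 0.319) and -0.63 in WCOC vs. DOP (edgeR adjusted p = 0.0447), the latter past both limits. The log2FC of AGTR1 and ACE changed little under that covariate (0.74 in DOP vs. C and 1.08 in WCOC vs. DOP). C 5, on the flow cell of DOP, had 18.5 CPM of EDNRB, below 5 of 5 DOP pigs, and with the flow cell as a covariate the log2FC of DOP vs. C was 0.77.

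**Figure D4:**
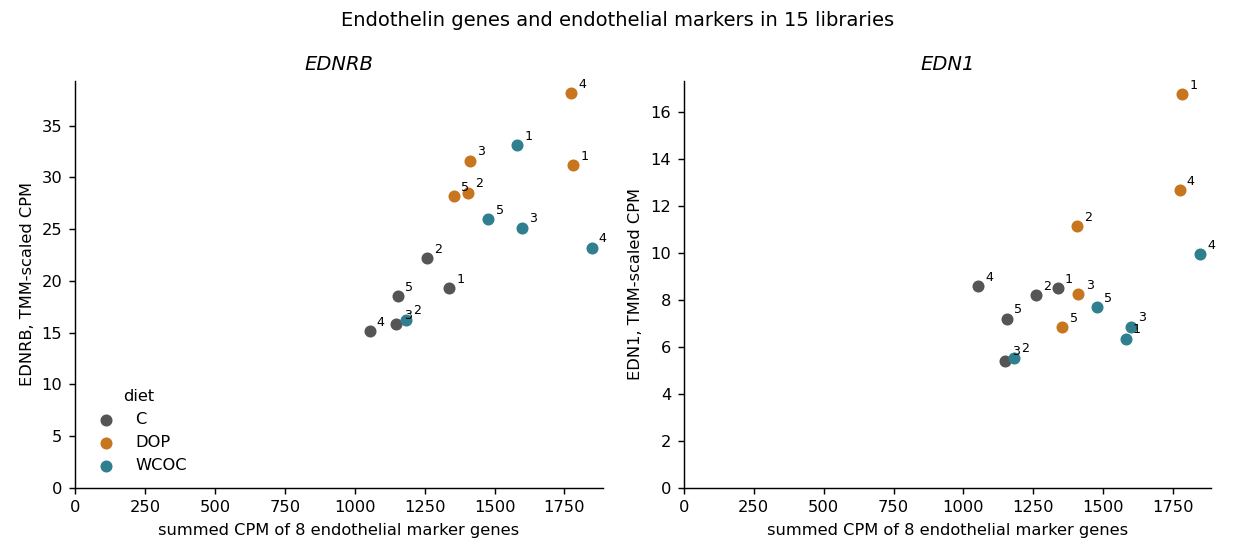
EDNRB (left) and EDN1 (right) in TMM-scaled CPM against the summed CPM of 8 endothelial marker genes, 1 point per library with its replicate number, coloured by diet. DOP and WCOC libraries reach farther to the right than the C libraries (1053 to 1337 CPM), and WCOC 4, with the highest marker sum of 1847 CPM, had 23.2 CPM of EDNRB, below every DOP library.

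Other cell types that express these receptors were read as well. The 13 smooth muscle and pericyte markers, led in C by PDGFRB (262 CPM) and in DOP by DES (539 CPM, 5.22 to 1490 CPM), summed to 1238 to 1554 CPM in C, 1409 to 2987 CPM in DOP and 1250 to 1528 CPM in WCOC. DES is also made by skeletal muscle. Of the 13, KCNJ8, a potassium channel of pericytes, was the 1 DEG in DOP vs. C by edgeR (16.7 ± 2.87 CPM in C, 28.5 ± 6.10 CPM in DOP and 15.03 ± 1.98 CPM in WCOC, SD, n = 5, log2FC 0.77 ± 0.15, SE, edgeR adjusted p = 0.0367), as by DESeq2 but not by limma-voom. In WCOC vs. DOP, 2 of the 13 were DEGs by edgeR, both lower, beside 7.76% of all genes (5.11% lower). They were KCNJ8 (log2FC -0.92 ± 0.15, edgeR adjusted p = 0.00307) and DES (-5.00 ± 1.51, edgeR adjusted p = 0.0427), DES not by limma-voom. AGTR1 was likewise highest in DOP, and KCNJ8 was picked for mention after its values were seen. MCAM, which was no DEG there, had a log2FC of 0.53 ± 0.12 in DOP vs. C (edgeR adjusted p = 0.058). In that comparison 10 of the 13 markers had a log2FC above 0. The other 3 were below it: MYH11 (-0.47), ACTA2 (-0.21) and TAGLN (-0.18), all of contractile smooth muscle. SMTN (0.39, edgeR adjusted p = 0.0692) and CNN1 (0.13), also of contractile smooth muscle, were above it. Of all genes, 0.764% were DEGs in DOP vs. C by edgeR. Melanocytes carry EDNRB, and of their pigment genes TYR, PMEL, MLANA and DCT averaged 0.00779, 0.239, 0.369 and 0.646 CPM in C, and 0.00751, 0.145, 0 and 0.509 CPM in DOP. MITF, which other cells also express, averaged 39.99 CPM in C and 41.2 CPM in DOP. The 9 matched genes of the melanocyte and Schwann cell list, led by ERBB3, summed to 300 to 418 CPM in C, 312 to 430 CPM in DOP and 278 to 420 CPM in WCOC. The 10 fibroblast and progenitor markers, led by COL1A2, summed to 5223 to 9602 CPM in C, 4192 to 7775 CPM in DOP and 2923 to 5979 CPM in WCOC. Macrophage markers (10 genes, led by CSF1R) ran from 268 to 816 CPM in C, from 170 to 418 CPM in DOP and from 135 to 317 CPM in WCOC. Epidermal markers (7 genes, led by KRT10) stayed between 1.93 and 132 CPM in all libraries. The part of the smooth muscle, fibroblast and epidermal markers in the levels of the receptors was not tested.

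Set against the whole transcriptome, 1 of the 5 members not chosen by their values, ACE, was a DEG by edgeR in any comparison. In DOP vs. C, 0 of the 5 were DEGs by edgeR, DESeq2 or limma-voom (2 with an unadjusted p under 0.05 by edgeR), beside 0.764% of all genes tested that were DEGs, and their groups overlapped for all 5, where 3.47% of all genes had groups that did not. In WCOC vs. C, 0 of the 5 were DEGs by edgeR and DESeq2 (2 with an unadjusted p under 0.05 by edgeR) and limma-voom called 1, ACE, beside 6.25% of all genes. ACE was also the 1 of the 5 whose groups did not overlap there, as held for 7.62% of all genes. In WCOC vs. DOP, 1 of the 5, ACE, was a DEG by all 3 tools, beside 7.76% of all genes, of which 2.65% were higher and 5.11% lower. Groups did not overlap for ACE there either, beside 8.9% of all genes. An unadjusted p under 0.05 was held by 17.6%, 26.4% and 28.1% of all genes in DOP vs. C, in WCOC vs. C and then in WCOC vs. DOP. The median log2FC of the 5 genes was 0.05, 0.22 and 0.17 in the same order, where all genes had medians of 0.01, 0.00 and 0.00. AGTR1 and EDNRB are left out of these counts because they were chosen by their values in DOP and C.

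Further enzymes of angiotensin metabolism were read from a list of 17 genes, of which 12 were matched and 10 tested. The type 2 receptor AGTR2 was listed with 0 counts in all 15 libraries, which allows up to 3 counts in each. So was ARHGEF1, a widely expressed gene, and whether such zeros come from depth or from how reads were assigned to genes was not tested. ATP6AP2, also a subunit of the vacuolar proton pump, averaged 93.3 CPM in C, 82.1 CPM in DOP and 74.7 CPM in WCOC, and its log2FC in WCOC vs. C was -0.32 ± 0.09 (SE, edgeR adjusted p = 0.0323), below the limit on size. Of the 10 genes, 0 were DEGs by edgeR in DOP vs. C, beside 0.764% of all genes, and 3 had an unadjusted p under 0.05, beside 17.6%. There DESeq2 called 1, ENPEP, higher and limma-voom 0. In WCOC vs. C edgeR, DESeq2 and limma-voom called 0, beside 6.25% of all genes by edgeR. By edgeR 3 had an unadjusted p under 0.05 there, beside 26.4% of all genes.

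Between the olive diets 2 of the 10 genes were DEGs by edgeR and limma-voom, both lower in WCOC than in DOP. Of all genes, 7.76% were DEGs there by edgeR (2.65% higher and 5.11% lower). ENPEP encodes aminopeptidase A, which trims angiotensin II, and read 13.01, 18.8, 15.8, 21.4 and 13.9 CPM in DOP 1 to DOP 5. It had 14.01, 9.21, 8.46, 8.83 and 11.12 CPM in WCOC 1 to WCOC 5 and 7.52 to 12.1 CPM in C, below all DOP pigs. MME encodes neprilysin, which degrades angiotensin and endothelin peptides, and read 14.4, 17.6, 13.6, 10.03 and 14.3 CPM in DOP and 5.92, 7.86, 7.28, 8.64 and 8.14 CPM in WCOC. The level of MME in C, 7.65 to 13.01 CPM, overlapped with both. For MME all WCOC pigs were below all DOP pigs, whereas for ENPEP WCOC 1 lay within the DOP range. Groups did not overlap for 8.9% of all genes in WCOC vs. DOP and for 3.47% in DOP vs. C. The log2FC was -0.68 ± 0.18 for ENPEP (SE, edgeR adjusted p = 0.0267) and -0.88 ± 0.17 for MME (edgeR adjusted p = 0.00674). DESeq2 also called ANPEP, aminopeptidase N, lower. The median log2FC over the 10 genes was 0.0013 in DOP vs. C, -0.12 in WCOC vs. C and -0.0784 in WCOC vs. DOP.

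The rest of the endothelin system was all but unread. Of EDN2, EDN3, ECE2, ECEL1 and KEL, 3 were matched by symbol (EDN2, ECEL1 and KEL), and 0 passed the filter on low counts. ECEL1 reached at most 0.562 CPM and EDN2 at most 0.112 CPM. Among the genes of this system that were read, EDN1, ECE1 and both receptors were therefore the only ones with levels that could be tested.

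The chain of G proteins, phospholipase C and protein kinases that both receptor families use was read as well. From a list of 29 genes 26 were tested. In DOP vs. C, 0 were DEGs by edgeR, DESeq2 or limma-voom, beside 0.764% of all genes, and 10 had an unadjusted p under 0.05, as had 17.6% of all genes. PLCB4, a phospholipase C, was the 1 DEG in WCOC vs. C by edgeR, beside 6.25% of all genes (87.8 ± 10.2 CPM in C and 133.8 ± 18.9 CPM in WCOC, SD, n = 5, log2FC 0.61 ± 0.10, SE, edgeR adjusted p = 0.00284). It was called by limma-voom too, and DESeq2 called it with RGS4 higher and RGS2 lower. ITPR3, a channel that releases stored calcium, was the 1 DEG in WCOC vs. DOP by edgeR and DESeq2, beside 7.76% of all genes (16.2 ± 1.79 CPM in DOP and 24.9 ± 4.42 CPM in WCOC, log2FC 0.62 ± 0.13, edgeR adjusted p = 0.0111), and limma-voom called PLCB1 higher beside it. The median log2FC of the list was -0.09, 0.06 and 0.12 in DOP vs. C, in WCOC vs. C and then in WCOC vs. DOP.

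Genes known to respond to angiotensin or endothelin in other tissues were lower rather than higher in WCOC where they passed the test. Of 18 tested, 3 were DEGs in WCOC vs. C by edgeR, all lower, beside 6.25% of all genes (347 higher and 586 lower). They were fibronectin FN1 (log2FC -1.65 ± 0.38, SE, edgeR adjusted p = 0.0156), collagen COL1A1 (-0.93 ± 0.28, edgeR adjusted p = 0.0483) and the adhesion molecule VCAM1 (-0.69 ± 0.18, edgeR adjusted p = 0.0302). FN1 fell from 965 ± 533 CPM in C to 308 ± 103 CPM in WCOC (SD, n = 5), with C 3 at 1650 and C 5 at 1383 CPM the highest libraries. In DOP vs. C edgeR called 0, beside 0.764% of all genes, and 5 had an unadjusted p under 0.05, as had 17.6% of all genes. DESeq2 called HBEGF higher and FN1 lower there, and limma-voom called 0. In WCOC vs. DOP edgeR and limma-voom called 0, beside 7.76% of all genes by edgeR, and DESeq2 called COL1A1 lower. By edgeR 9 had an unadjusted p under 0.05 there, as had 28.1% of all genes. EGR1, FOS, PTGS2 and HBEGF, high in DOP 2, were among these 9. The medians were 0.17, -0.18 and -0.50 in DOP vs. C, in WCOC vs. C and then in WCOC vs. DOP. The median summed level of the fibroblast markers, led by the collagen gene COL1A2, was 6433 CPM in C and 3720 CPM in WCOC. That of the macrophage markers was 351 CPM in C and 143 CPM in WCOC. For both lists the ranges of C and WCOC overlapped. The relation of the response genes to these markers was not tested.

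Among 27 tested genes of other vasoactive systems, endothelial nitric oxide synthase NOS3 and adrenomedullin ADM, which widen vessels, were higher in WCOC than in C, and the thromboxane receptor TBXA2R, which narrows them, was lower. NOS3 averaged 49.3 ± 4.40 CPM in C and 84.8 ± 15.3 CPM in WCOC (SD, n = 5, log2FC 0.78 ± 0.13, SE, edgeR adjusted p = 0.00264). ADM had a log2FC of 0.62 ± 0.19 (edgeR adjusted p = 0.0473) and TBXA2R one of -1.08 ± 0.25 (edgeR adjusted p = 0.0159). All 5 WCOC pigs had more NOS3 than any C pig (66.1 to 104.7 against 44.1 to 54.4 CPM). Of all genes, 6.25% were DEGs in WCOC vs. C by edgeR and 7.62% had groups that did not overlap. The endothelial markers were higher in WCOC as well, and their part in the level of NOS3 was not tested.

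In WCOC vs. DOP, RAMP3, a partner of the adrenomedullin receptor, was higher (15.1 ± 1.48 CPM in DOP and 25.7 ± 3.41 CPM in WCOC, log2FC 0.76 ± 0.10, SE, edgeR adjusted p = 0.00131). RAMP1 (log2FC -2.93 ± 0.84, edgeR adjusted p = 0.0353) and NOS1 (-5.05 ± 1.43, edgeR adjusted p = 0.0335) were lower by edgeR and DESeq2, and limma-voom called neither. DESeq2 and limma-voom also called ADRA2C higher, and DESeq2 called ADRA2B lower. The levels of RAMP1 and NOS1 were high in the muscle-rich libraries DOP 5, DOP 2 and DOP 4, with RAMP1 at 100.2, 23.7 and 15.5 CPM, and at 2.41 and 2.78 CPM in DOP 1 and DOP 3. In DOP vs. C edgeR and limma-voom called 0 of the 27 genes, beside 0.764% of all genes by edgeR. By edgeR 10 had an unadjusted p under 0.05 there, as had 17.6% of all genes. DESeq2 called ADM and NOS2 higher and TBXA2R lower in that comparison. The medians were 0.11, 0.20 and 0.15 in DOP vs. C, in WCOC vs. C and then in WCOC vs. DOP.

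Within diets the members did not move as one system. Over the 15 libraries after centring within diets, the largest correlations of log2 CPM between members were 0.56 for EDNRA and EDNRB, -0.57 for AGT and AGTR1, and 0.43 for ACE and ECE1. Without centring, ACE and ECE1 had 0.74 and AGTR1 and ACE -0.68, and the latter was 0.13 after centring. These are descriptions over 15 libraries that share depth and tissue makeup.

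The genes whose centred log2 CPM was most like that of a member were taken among 11132 genes with a symbol and a mean of at least 1 CPM. For EDNRB they were FLT1, a receptor of vascular endothelial growth factor (r = 0.90), HGF (0.90), FAM117B (0.89), FZD6 (0.88) and TJP1 (0.88). For AGTR1 they were PLEKHH2 (0.82), ZNF177 (0.78), SCML4 (0.76), PIK3CD (0.75) and MMP27 (0.75), all less alike than the nearest genes of EDNRB. Claudin CLDN5 of endothelial junctions was nearest to ECE1 (0.93), followed by PELI3 (0.90) and KIF7 (0.87). The first for ACE were IL10RB (0.85), PPP1R12C (0.84) and PLXDC2 (0.82), and for AGT they were FOXO4 (0.91), CTDP1 (0.89) and NFE2L1 (0.88).

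For EDN1 the nearest genes included ZNF329 (0.87) and CATSPERG (0.84), and for EDNRA they were FRMD3 (0.94), INTS6L (0.83) and PIK3C3 (0.83). Without centring, so that the diets count, AGTR1 was most like SPRY2 (0.92), ADAMTSL3 (0.90), CIART (0.88), FLT4 (0.86) and PTGR2 (0.86). On that scale EDNRB was most like RCBTB2 (0.94), NMNAT2 (0.90), ATP7B (0.90), NUP62CL (0.90) and RNF125 (0.89).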

How the data were processed

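The libraries were paired-end. The authors used HISAT2 for alignment to Sscrofa11.1 and HTSeq for the counts of Ensembl genes. The deposited values are raw counts per gene, 1 table per pig, neither normalized nor pooled. The alignment was set for strand-specific reads. Tool versions, annotation release and the strand setting of the counting are not given in the sources used here. Diet and replicate come from the labels. Each table ends with 5 summary lines for pairs not counted on a gene (23.4% to 32.8% of a library), which were left out.

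Counts were analysed with edgeR 4.0.16 in R 4.3.3: filterByExpr, TMM (factors 0.857 to 1.21), and 1 quasi-likelihood fit with a mean per diet to all 15 libraries, two-sided, with Benjamini-Hochberg adjustment over 14918 genes. No library pair had a log2 CPM correlation above 0.983, so none was treated as a duplicate. The workflow was tested on simulated data. Replicates are different pigs, but those of a diet shared a pen, so p-values measure the spread between pigs of 1 pen per diet.

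The members and lists were chosen with earlier results of these data known. Genes named are the members, DEGs of the pathway lists and list genes with a role in either system, the most abundant marker of each list, and the genes most alike in pattern. A few genes of the lists and of the genes most alike in pattern are not reported here. Alternatives were DESeq2 size factors, other filters, DESeq2 1.42.0, limma-voom (limma 3.58.1), only the diets compared, the replicate block, flow cell, no limit on log2FC and leaving out each library. The skeletal muscle, macrophage and endothelial covariates were chosen after seeing the data. Gene positions, exon lengths and promoters are from the RefSeq annotation of Sscrofa11.1, and sequence motifs were matched with Python 3.11.15.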

Additional observations from a re-analysis of the deposited data

How the results depend on the processing

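Of the 5 members tested, direction and call were kept by 153 of 170 log2FC values under other settings and by 204 of 225 with 1 library left out. The direction of AGTR1 and EDNRB, which were not tested, was kept by 67 of 68 and 90 of 90 values. Of all genes, 114 were DEGs in DOP vs. C, but 521 by DESeq2, 19 by limma-voom, 2 with only these diets in the fit and 0 with the replicate block. In WCOC vs. C the 933 DEGs became 1493 with no limit on log2FC, 473 with the replicate block and 486 in flow cell A alone, and in WCOC vs. DOP the 1158 became 1842, 561 and, with the flow cell as a covariate, 1. Leaving out 1 library gave 0 to 200, 468 to 1163 and 639 to 1291 DEGs. The replicate numbers do not pair the pigs: deviations of same-numbered pigs correlated at -0.50 to -0.12 in DOP vs. C, -0.28 to 0.34 in WCOC vs. C and -0.20 to 0.29 in WCOC vs. DOP.

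Of the members, AGTR1 and EDNRB met the rule for DEGs in DOP vs. C, as did 0.764% of all genes. They were picked for that rise, so their count is a description and no test of them. The count of 2 members became 1 without the filter and 0 by limma-voom, with only these diets, with the replicate block, with the flow cell or with the muscle, macrophage or endothelial covariate, and 0 to 2 with 1 library left out. In WCOC vs. C the 0 became 1 (ACE) with no limit, by limma-voom (log2FC 0.58) and with the muscle covariate (0.61), and 0 to 1 with 1 library left out. In WCOC vs. DOP the 2, ACE and the chosen AGTR1, became 0 with the flow cell as a covariate (ACE 1.12, edgeR adjusted p = 0.253). With 1 library left out the count was 2 to 3. EDNRB moved to 0.44 in DOP vs. C and 0.04 in WCOC vs. C with the endothelial covariate, where EDN1 in WCOC vs. DOP, at -0.63, became a DEG. The cause of these changes was not tested.

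Signs turned for small log2FC values. With the flow cell, ECE1 in DOP vs. C became 0.0575 and AGT in WCOC vs. C -0.0329 (-0.0445 in flow cell A alone). The muscle covariate gave AGT -0.0447 in DOP vs. C and 0.18 in WCOC vs. DOP. The macrophage covariate gave AGT -0.11 and EDNRA -0.14 in DOP vs. C, and AGT -0.24, AGTR1 0.0252 and EDNRA -0.065 in WCOC vs. C. The endothelial covariate gave AGT -0.0076 and EDNRA -0.19 in DOP vs. C, and AGT -0.036 and EDNRA -0.0565 in WCOC vs. C. With 1 library left out, AGT ran from -0.20 to 0.31 in DOP vs. C, from -0.22 to 0.28 in WCOC vs. C and from -0.20 to 0.12 in WCOC vs. DOP, EDNRA from -0.0691 to 0.15 in DOP vs. C, and EDN1 from -0.19 to 0.0199 in WCOC vs. C. Depth limits EDN1 most, which had counts of 148 to 417 per library. At the mean count of each diet its counting error was 5.75% to 7.17%.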
